A study of Homo sapiens with 12 samples.

Results

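The genes described here are 10 members of the transforming growth factor-β (TGF-β) pathway, namely the ligands *TGFB1*, *TGFB2* and *TGFB3*, the receptors *TGFBR1*, *TGFBR2* and *TGFBR3*, the intracellular mediators *SMAD2* and *SMAD3*, the inhibitor *SMAD7*, and *INHBA*, which encodes the activin A subunit. They were chosen by symbol, and all 10 were found among the 23346 genes of the deposited RNA-seq table and among the 16236 genes kept for testing. RNA came from SW1990 and CFPAC-1, both established human pancreatic adenocarcinoma cell lines, after sorting of dissociated cells with GCTM-5, a monoclonal antibody to a cell surface glycoprotein complex. There were 4 groups of 3 samples (12 in all): SW1990 negative, SW1990 positive, CFPAC-1 negative and CFPAC-1 positive, where negative and positive refer to GCTM-5 staining and cells of intermediate staining were left outside the gates. No gene was altered, and the study names no drug or ligand as a treatment of any group. Its methods describe culture in medium with foetal bovine serum and a supplement of insulin, transferrin and selenium. The comparison asks how cells of one line that carry the antigen differ from those that lack it.

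TGF-β ligands are secreted in a latent form and, once released, bring a type II receptor (*TGFBR2*) together with a type I receptor (*TGFBR1*), which phosphorylates *SMAD2* and *SMAD3*. These then enter the nucleus with *SMAD4* and act on target genes, among them *SMAD7*, whose product returns to block the type I receptor. In pancreatic carcinoma the pathway is known both for restraining growth of epithelial cells and for driving their transition to a mesenchymal state.

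Values are RPKM, reads divided by gene length and by library size, so that levels of different genes can be set beside each other per length. Library totals recovered from the values ranged from 9969697 reads (CFPAC-1 positive replicate 3) to 26159330 (CFPAC-1 positive replicate 1), and the other 10 lay between 16973802 and 23277139. The labelled cell type was checked on marker genes, and 5 epithelial markers were detected in every sample, with a summed RPKM of 1357 to 1628 in SW1990 negative, 4014 to 4562 in SW1990 positive, 5222 to 6002 in CFPAC-1 negative and 6400 to 7691 in CFPAC-1 positive cells. Of 8 fibroblast markers, *LUM* had a mean of 13.2 RPKM in SW1990 negative and 2.43 in SW1990 positive cells, and *PDGFRB* of 1.76 and 0.038. The fibroblast marker *THY1* was at 0 in all 12 samples. Summed over all 8, the range was 12.7 to 22.6 RPKM in SW1990 negative and 3.90 to 4.88 in SW1990 positive cells, against 1.42 to 1.85 and 1.62 to 2.40 in the negative and positive CFPAC-1 cells. Over 4 endothelial markers it was 14.8 to 18.8 RPKM in SW1990 negative and 1.47 to 2.05 in SW1990 positive cells (0.989 to 1.49 and 0.751 to 0.995 in CFPAC-1), most of it *CDH5* in SW1990 and KDR in CFPAC-1, where *CDH5* had at most 1 read, and over 6 leukocyte markers it was 35.6 to 49.9 and 16.2 to 34.7 RPKM in SW1990 (179 to 209.6 and 163 to 228 in CFPAC-1), most of it *CD68*, with *LYZ* next in CFPAC-1, with *PTPRC* at 0 to 3 reads in every sample. These lists moved with antigen status in SW1990, and their part in the results was not tested. In such bulk samples a lower value may mean fewer cells that express a gene or less RNA in each, and these cannot be told apart.

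The promoters of the 3 members whose levels varied most over the 12 samples (*INHBA*, *SMAD7* and *TGFB2*) are shown because these 3 carry the main contrasts below: *TGFB2* fell in positive cells of both lines, *SMAD7* fell in SW1990 alone, and *INHBA* moved in opposite directions. Each sequence holds the 250 bases before the RefSeq start site (GRCh38.p14), placed on GRCh37 by exact match, written in lower case on the gene's strand from 5′ to 3′. Capitals mark CAGAC, the sequence that the DNA-binding domain of *SMAD3* and *SMAD4* is known to recognise, in either orientation.
TGFB2, chr1:218518428-218518677, plus strand: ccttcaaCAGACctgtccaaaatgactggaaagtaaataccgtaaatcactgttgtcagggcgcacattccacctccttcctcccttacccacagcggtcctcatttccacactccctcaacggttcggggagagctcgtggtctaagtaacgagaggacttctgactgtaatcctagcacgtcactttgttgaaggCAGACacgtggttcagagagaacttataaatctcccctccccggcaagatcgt
SMAD7, chr18:46477336-46477585, minus strand: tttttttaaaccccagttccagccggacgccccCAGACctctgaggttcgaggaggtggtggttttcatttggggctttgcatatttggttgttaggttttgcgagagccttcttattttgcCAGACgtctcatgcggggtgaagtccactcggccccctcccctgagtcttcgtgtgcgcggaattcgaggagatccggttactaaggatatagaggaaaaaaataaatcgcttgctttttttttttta
INHBA, chr7:41742689-41742938, minus strand: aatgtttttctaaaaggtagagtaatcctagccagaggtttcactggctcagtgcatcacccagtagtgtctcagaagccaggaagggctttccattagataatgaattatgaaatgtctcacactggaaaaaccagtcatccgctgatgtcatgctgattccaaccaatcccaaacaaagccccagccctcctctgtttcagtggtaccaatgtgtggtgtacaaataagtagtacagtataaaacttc
The *TGFB2* window held CAGAC from positions -243 and -53 relative to the start, and all 250 of its bases lie in an exon of the antisense gene *TGFB2-AS1* (GENCODE release 44). The *SMAD7* window held it from positions -217 and -128 and overlaps no annotated exon. The *INHBA* window held none and also overlaps no exon, and it lies 2744 bases inside the 5′ end of the longest GENCODE gene model. Of all 10 members, 4 had at least 1 match (the others being *TGFB3* and *TGFBR1*), as did 38.0% of 34788 promoter windows of this length. A CACCTG motif, which ZEB and SNAIL factors bind, was found in 1 member (*TGFBR1*) and in 17.5% of all windows. These matches describe the letters only.

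In SW1990, 8 of the 10 members were lower in positive than in negative cells (limma, Benjamini-Hochberg adjusted p under 0.05) and none was higher. Over all 16236 genes 28.2% passed in this comparison, 16.9% of them lower and 11.3% higher. The median log2 fold change was -0.64 over the members and -0.04 over all genes. In CFPAC-1, 6 members passed, of which 4 were lower (*TGFB1*, *TGFB2*, *TGFBR3* and *SMAD3*) and 2 higher (*TGFBR1* and *INHBA*), against 36.5% of all genes (22.3% higher and 14.2% lower). With each sample centred on its median, that split over all genes changed from 3622 higher and 2307 lower to 2795 and 3056, while the counts of members stayed at 2 and 4. The median log2 fold change was -0.12 over the members and 0.05 over all genes. By pattern, 3 members fell in both lines (*TGFB1*, *TGFB2* and *SMAD3*, against 4.88% of all genes), 2 fell in SW1990 and rose in CFPAC-1 (*TGFBR1* and *INHBA*, against 2.03%), 3 fell in SW1990 and did not pass in CFPAC-1 (*TGFB3*, *TGFBR2* and *SMAD7*, against 10.0%), *TGFBR3* fell in CFPAC-1 and did not pass in SW1990 (7.99%), and *SMAD2* passed in neither (47.5%). Samples of positive and negative cells did not overlap for 9 members in SW1990, all 9 lower (43.3% of all genes did not overlap, 25.4% in that direction), and for 7 in CFPAC-1, 3 higher and 4 lower (48.5%). A call in a single line is not itself a difference between the lines, and that difference is given below for each gene. When any 1 of the 6 SW1990 samples was left out, the count in SW1990 went from 8 to 5, since *TGFB3*, *TGFBR1* and *INHBA* no longer passed. In the same fits the number of all genes that passed also dropped, from 4581 to between 3498 and 4013. By the thresholds that the study names (over 2-fold, and p under 0.01, here unadjusted), 3 members were lower in SW1990 (*TGFB1*, *TGFB2* and *SMAD7*, against 7.48% of all genes), *TGFB2* was lower in CFPAC-1 (4.13%) and *TGFBR1* and *INHBA* were higher there (5.65%).

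**Figure D1:**
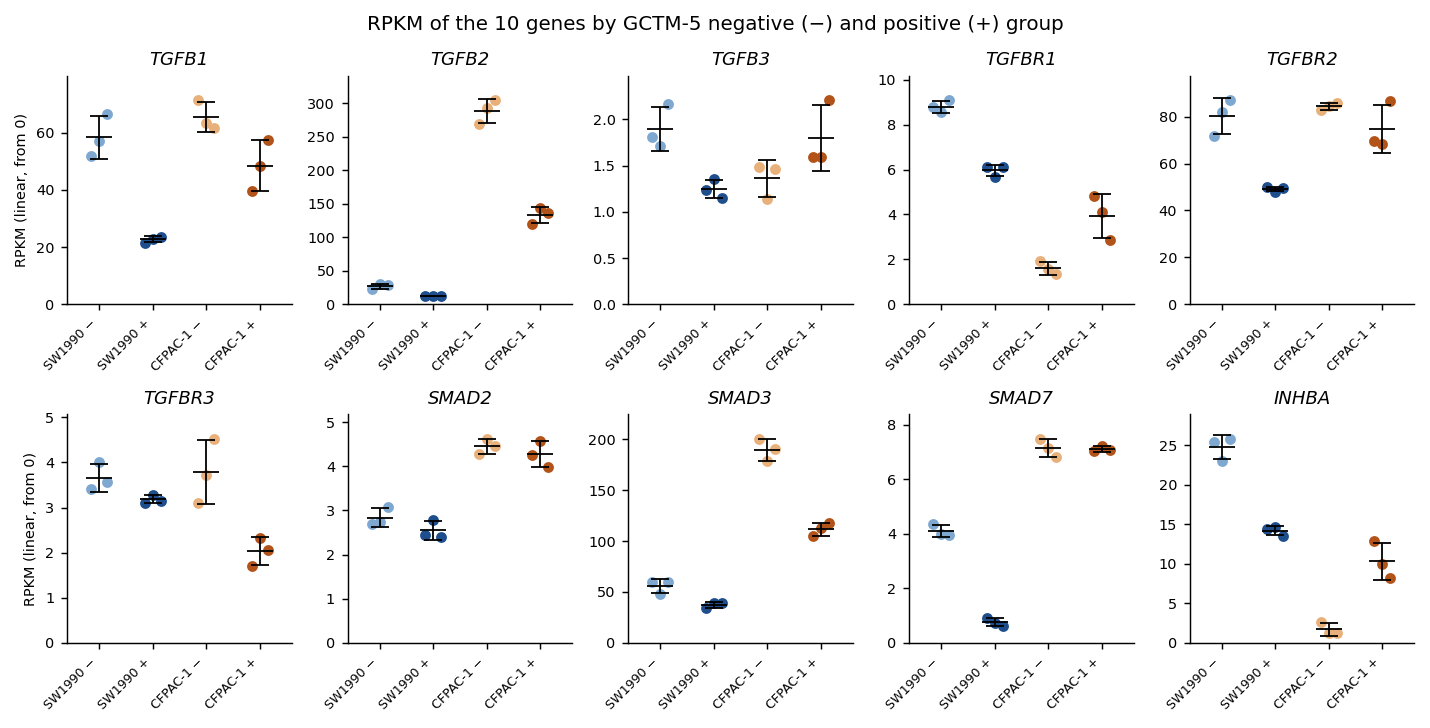
RPKM of each gene (y axes, linear and starting at 0, each panel with its own scale) in GCTM-5 negative (−) and positive (+) cells of SW1990 and CFPAC-1. Points are single samples and bars are the mean ± SD of 3 samples. SMAD7 stands at 0.623 to 0.913 in positive SW1990 cells and at 3.94 or more in all other samples, while INHBA is lowest in negative CFPAC-1 cells.

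**Figure D2:**
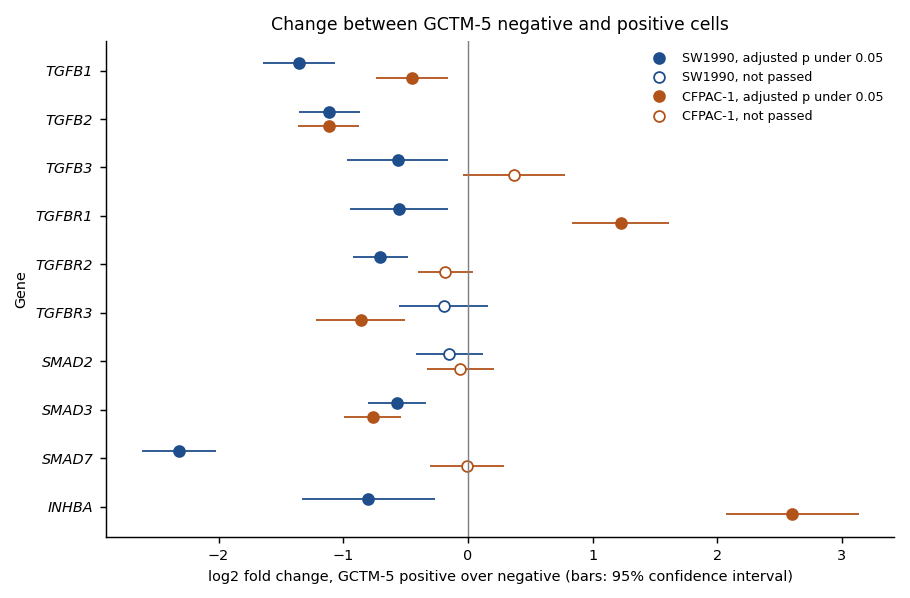
log2 fold change of positive over negative cells (x axis) for each gene (y axis) in SW1990 (blue) and CFPAC-1 (orange), with 95% confidence intervals. Filled points passed at an adjusted p under 0.05 (limma). All SW1990 points lie left of 0, whereas TGFBR1, INHBA and TGFB3 (which did not pass) in CFPAC-1 lie to the right.

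*TGFB1* (chr19:41807492-41859827, GRCh37, minus strand), the ligand most cells make, measured 51.7, 57.0 and 66.5 RPKM in SW1990 negative cells (replicates 1 to 3) and 21.5, 23.0 and 23.5 in SW1990 positive cells. In CFPAC-1 it measured 71.3, 63.5 and 61.5 RPKM in negative and 39.6, 48.3 and 57.6 in positive cells. The positive samples lay below the negative ones in each line, by a wide gap in SW1990 and a narrow one in CFPAC-1. The log2 fold change was -1.36 (95% confidence interval -1.64 to -1.07, limma adjusted p = 1.21e-05) in SW1990 and -0.45 (-0.73 to -0.16, adjusted p = 0.0209) in CFPAC-1. The fall in CFPAC-1 did not pass without negative replicate 1 or without positive replicate 1 (adjusted p = 0.0775 and 0.0839), nor with CFPAC-1 fitted alone (0.0711). The change differed between the lines by -0.91 on the log2 scale (adjusted p = 0.00386), and 26.9% of all genes passed that test.

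*TGFB2* (chr1:218518678-218617961, plus strand), a ligand prominent in development, measured 22.2, 30.0 and 28.0 RPKM in negative and 11.9, 12.9 and 11.9 in positive SW1990 cells. Its levels in CFPAC-1 were an order of magnitude above these, at 269.9, 293 and 305 RPKM in negative and 119.9, 144 and 137 in positive cells. All 4 groups were separate, and the fall was of nearly the same size in both lines, with a log2 fold change of -1.11 (-1.36 to -0.86, adjusted p = 1.7e-05) in SW1990 and -1.12 (-1.37 to -0.87, adjusted p = 4.73e-05) in CFPAC-1. The difference between these changes was 0.01 (95% confidence interval -0.34 to 0.36, adjusted p = 0.982). The antisense transcript *TGFB2-AS1* (chr1:218517532-218519378, minus strand, listed under its gene number as *LOC728463*) overlaps the first exon of *TGFB2*. It measured 5.68, 7.94 and 7.11 RPKM in SW1990 negative and 2.68, 2.75 and 3.04 in SW1990 positive cells, and 97.3, 115 and 105 against 43.7, 50.5 and 61.9 RPKM in CFPAC-1. Its read counts were 1.99% to 4.24% of those of *TGFB2* over the 12 samples, and where the genes overlap their reads cannot be told apart unless counting used strand, which the sources used here do not state.

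*TGFB3* (chr14:76424440-76449354, minus strand), the third ligand, was the lowest of these 3, at 65 to 133 reads a sample. It measured 1.80, 1.71 and 2.17 RPKM in SW1990 negative and 1.23, 1.35 and 1.15 in SW1990 positive cells, and 1.48, 1.14 and 1.47 against 1.60, 1.59 and 2.21 in CFPAC-1. The samples separated in opposite directions in the lines. In SW1990 the log2 fold change was -0.56 (adjusted p = 0.0398). In CFPAC-1 it was 0.37 (-0.04 to 0.78, adjusted p = 0.14), which did not pass. The difference between the lines was -0.93 (adjusted p = 0.0208). The fall in SW1990 was lost without any 1 of the 6 SW1990 samples (adjusted p of 0.0523 to 0.143) and without CFPAC-1 negative replicate 1 or 3 (0.0503 and 0.0535), and also with samples centred (0.0524), with quantile normalization (0.15), with no filter on low values (0.0559) and with a replicate block (0.0629). The difference was lost with quantile normalization (-0.67, adjusted p = 0.0653) and without SW1990 positive replicate 3 or CFPAC-1 negative replicate 2 (0.0519 and 0.0567).

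*INHBA* (chr7:41706766-41745432, minus strand) encodes the βA chain, which forms activin A, a ligand that signals through other receptors to the same *SMAD2* and *SMAD3*. It measured 25.4, 23.1 and 25.8 RPKM in negative and 14.3, 14.7 and 13.5 in positive SW1990 cells. In CFPAC-1 the order was turned around, with 2.62, 1.26 and 1.20 RPKM in negative and 12.8, 9.97 and 8.16 in positive cells. No sample of one group reached into the other in either line, and the spread was widest in CFPAC-1, where the negative replicate 1 had over 2 times the level of its fellows. The log2 fold change was -0.80 (-1.33 to -0.27, adjusted p = 0.0287) in SW1990 and 2.60 (2.07 to 3.13, adjusted p = 3.04e-05) in CFPAC-1, a ratio of mean RPKM of 0.573 and 6.09. Between the lines these changes differed by -3.40 (adjusted p = 4.32e-05), the largest difference among the 10 members. The fall in SW1990 did not pass without any 1 of the 6 SW1990 samples (adjusted p of 0.0516 to 0.0855).

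*TGFBR1* (chr9:101866320-101916474, plus strand), the type I receptor kinase, measured 8.76, 8.55 and 9.08 RPKM in negative and 6.12, 5.69 and 6.10 in positive SW1990 cells. It measured 1.90, 1.55 and 1.35 RPKM in negative and 4.81, 4.11 and 2.87 in positive CFPAC-1 cells. As with *INHBA*, positive samples were all lower in SW1990 and all higher in CFPAC-1. The log2 fold change was -0.55 (-0.94 to -0.16, adjusted p = 0.0377) in SW1990, which was lost without any 1 of the 6 SW1990 samples (0.0729 to 0.106) or without CFPAC-1 negative replicate 2 (0.0522), and with each sample centred on its median or quantile normalized (0.0523 for each). In CFPAC-1 it was 1.22 (0.83 to 1.62, adjusted p = 0.000401). The difference between the lines was -1.78 (adjusted p = 0.000391).

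*TGFBR2* (chr3:30648093-30735634, plus strand), the type II receptor that binds the ligand first, was the most abundant of the 3 receptors in each group, at 71.8, 82.0 and 87.0 RPKM in negative and 49.9, 48.0 and 49.4 in positive SW1990 cells. In CFPAC-1 it measured 83.0, 84.5 and 85.9 RPKM in negative and 69.5, 68.3 and 86.7 in positive cells, so that positive replicate 3 stood above the negative samples while the other two lay below them. The log2 fold change was -0.70 (-0.92 to -0.48, adjusted p = 0.000234) in SW1990 and -0.18 (-0.40 to 0.04, adjusted p = 0.178) in CFPAC-1. Without CFPAC-1 positive replicate 3, the library of lowest depth, the latter was -0.29 and passed (adjusted p = 0.0162). The difference between the lines was -0.52 (adjusted p = 0.0182), and it did not pass once samples were centred on their medians (-0.37, adjusted p = 0.0988).

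*TGFBR3* (chr1:92145900-92371892, minus strand), or betaglycan, is a co-receptor that presents ligand, TGF-β2 above all, to the type II receptor. It measured 3.41, 4.00 and 3.57 RPKM in SW1990 negative and 3.11, 3.28 and 3.15 in SW1990 positive cells, and 3.11, 3.71 and 4.52 against 1.71, 2.32 and 2.06 in CFPAC-1. Positive samples lay below the negative ones in both lines, by a narrow gap in SW1990. The log2 fold change was -0.19 (-0.55 to 0.16, adjusted p = 0.424) in SW1990 and -0.86 (-1.21 to -0.50, adjusted p = 0.00186) in CFPAC-1. The difference of 0.67 missed the threshold (adjusted p = 0.0506) and passed without CFPAC-1 negative replicate 1 or positive replicate 2 (0.79 and 0.76, adjusted p = 0.0284 and 0.0353). It also passed with centring, with quantile normalization, with voom (a weighted fit of the recovered reads), with no trend of variance on level, with a filter at a mean of 1 RPKM and with the replicate number as a block (0.67 to 0.88, adjusted p of 0.0251 to 0.0496).

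*SMAD2* (chr18:45335328-45457517, minus strand) and *SMAD3* (chr15:67356101-67487511, plus strand) encode the mediators that the activated receptor phosphorylates. *SMAD2* measured 2.68, 2.73 and 3.08 RPKM in SW1990 negative and 2.45, 2.79 and 2.40 in SW1990 positive cells, and 4.29, 4.62 and 4.45 against 4.26, 4.58 and 3.98 in CFPAC-1. The groups overlapped in both lines. Its log2 fold change of -0.15 (-0.42 to 0.12, adjusted p = 0.419) in SW1990 and of -0.06 (-0.33 to 0.21, adjusted p = 0.741) in CFPAC-1 did not pass. *SMAD3* measured 60.1, 47.6 and 60.2 RPKM in SW1990 negative and 34.0, 39.0 and 39.6 in SW1990 positive cells, and 200.3, 179 and 189.9 against 105, 112 and 118 in CFPAC-1. Here the samples separated in both lines, and *SMAD3* fell by 0.57 on the log2 scale in SW1990 (-0.80 to -0.34, adjusted p = 0.00151) and by 0.76 in CFPAC-1 (-0.99 to -0.53, adjusted p = 0.00028). The difference between the lines was 0.20 (95% confidence interval -0.13 to 0.52, adjusted p = 0.365).

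*SMAD7* (chr18:46446223-46477335, minus strand), the inhibitor that TGF-β itself induces, showed the largest fall of the 10 members in SW1990, at 4.37, 4.00 and 3.94 RPKM in negative and 0.913, 0.718 and 0.623 in positive cells. The latter rest on 38 to 61 reads a sample, against 240 to 321 in negative cells. In CFPAC-1 it measured 7.47, 7.14 and 6.82 RPKM in negative and 7.03, 7.22 and 7.08 in positive cells, and these groups overlapped. The log2 fold change was -2.32 (-2.62 to -2.02, adjusted p = 2.96e-07) in SW1990, a ratio of means of 0.183. In CFPAC-1 it was -0.01 (-0.31 to 0.29, adjusted p = 0.984). The difference between the lines was -2.31 (adjusted p = 1.13e-05).

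In all, 6 members changed differently between the lines, namely *TGFB1*, *TGFB3*, *TGFBR1*, *TGFBR2*, *SMAD7* and *INHBA*. Each had a lower log2 fold change of positive over negative cells in SW1990 than in CFPAC-1 (17.8% of all genes passed in this direction). The median over the members was -0.72, against -0.15 over all genes. That general shift of -0.15 went to 0.00 when samples were centred on their medians, and the split over all genes changed from 1487 higher and 2887 lower to 1987 and 1988. Among the members, centring left 5 that passed as lower and 1 as higher. *TGFBR2* no longer passed (limma adjusted p = 0.0988), and *TGFBR3* passed as higher (0.81, adjusted p = 0.033). Relative to the median of all genes, the differences of the 6 members named above ran from -0.37 (*TGFBR2*) to -3.25 (*INHBA*).

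The balance among ligands, among receptors and between the SMADs was then compared by exact 2-sided permutation tests (3 measures, 400 rearrangements within the lines). Over both lines the statistic was the sum of the 2 differences, positive minus negative, so that opposite changes cancel. A test of 3 against 3 samples within a line cannot give a p below 0.10. The summed RPKM of *TGFB1*, *TGFB2* and *TGFB3* was 87.0 ± 10.6 (SD, n = 3) in SW1990 negative and 36.1 ± 1.39 in SW1990 positive cells, and 356 ± 12.6 against 184 ± 19.6 in CFPAC-1. *TGFB2* made up 30.7% ± 2.69 of that sum in negative and 33.9% ± 1.19 in positive SW1990 cells, where *TGFB1* was the leading ligand. In CFPAC-1 it made up 81.2% ± 2.16 in negative and 72.7% ± 2.76 in positive cells, with no overlap (exact p = 0.10 in CFPAC-1 and 0.20 in SW1990). Over both lines the exact permutation p for this share was 0.285 (adjusted 0.285). The share moved by 3.15 points in SW1990 and by -8.44 in CFPAC-1, and a test of the sum cannot show such opposite changes. The log2 ratio of *TGFBR1* to *TGFBR2* went from -3.19 ± 0.13 to -3.04 ± 0.03 in SW1990 and from -5.73 ± 0.28 to -4.28 ± 0.57 in CFPAC-1 (exact p = 0.20 and 0.10, n = 3 a group). Over both lines the exact permutation p was 0.01 (adjusted 0.015). Most of that sum came from CFPAC-1, with a change of 1.46 against 0.14 in SW1990, where the groups overlapped. The log2 ratio of *SMAD2* to *SMAD3* went from -4.30 ± 0.18 to -3.88 ± 0.14 in SW1990 and from -5.41 ± 0.14 to -4.71 ± 0.15 in CFPAC-1, with no overlap in either line (exact p = 0.10 in each), and over both lines the exact permutation p was 0.005 (adjusted 0.015), the smallest that 400 rearrangements allow. *SMAD3* thus exceeded *SMAD2* per length in all 12 samples, and the excess was smaller in positive cells.

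**Figure D3:**
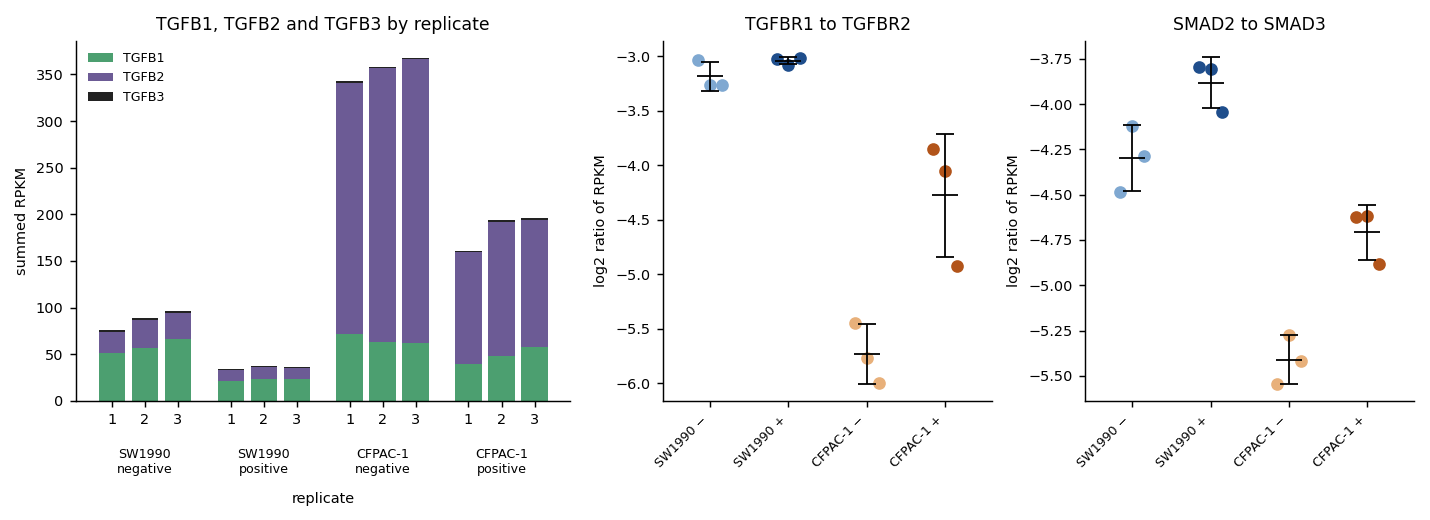
Left, RPKM of TGFB1, TGFB2 and TGFB3 stacked for each sample (y axis from 0). Middle and right, log2 ratio of TGFBR1 to TGFBR2 and of SMAD2 to SMAD3 for each sample (points), with mean ± SD of 3 samples. TGFB2 fills most of each CFPAC-1 bar, and SMAD2 to SMAD3 lies higher in positive cells of each line.

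Between the lines, 7 members passed in negative cells (3 higher and 4 lower in SW1990) against 68.9% of all genes, and 9 passed in positive cells (2 higher and 7 lower) against 62.3%. The median over all genes was 0.19 in negative cells, and centring moved it to 0.01. Differences here are log2 values, SW1990 minus CFPAC-1. *TGFB2* was lower in SW1990, at -3.44 (adjusted p = 2.72e-10) in negative and -3.43 (adjusted p = 3.5e-10) in positive cells, as was *SMAD3*, at -1.77 (adjusted p = 3.06e-08) and -1.57 (adjusted p = 1.25e-07). *INHBA* was higher in SW1990 by 3.88 (adjusted p = 4.8e-08) in negative cells, a ratio of means of 14.6, while in positive cells the difference of 0.48 (-0.05 to 1.01, adjusted p = 0.107) did not pass. That difference passed with the replicate block, with voom and without CFPAC-1 negative replicate 1 (adjusted p = 0.0168, 0.0401 and 0.0142). *TGFBR1* was higher in SW1990 by 2.40 in negative (adjusted p = 2.06e-07) and 0.62 in positive cells (adjusted p = 0.00953). *SMAD7* was lower in SW1990, at -0.79 in negative (adjusted p = 0.000267) and -3.10 in positive cells (adjusted p = 3.92e-09). *TGFB1*, *TGFBR2* and *TGFBR3* did not pass in negative cells (adjusted p = 0.275, 0.51 and 0.871). Once samples were centred on their medians, *TGFB1* (-0.36, adjusted p = 0.0362) and *TGFBR2* (-0.27, adjusted p = 0.0448) passed there as lower in SW1990. *TGFB3* passed there by a narrow margin (0.45, adjusted p = 0.0469) and lost that call in each of 11 fits that left out 1 sample (0.0503 to 0.174) and with centring, quantile normalization, no filter, a pseudocount of 0.01 or the replicate block (0.0512 to 0.22). In positive cells *TGFB3* was lower in SW1990 (-0.48, adjusted p = 0.0388), a call lost without SW1990 positive replicate 1 or 3 or CFPAC-1 positive replicate 3 (0.0779 to 0.126) and with quantile normalization, no filter, voom or the replicate block (0.053 to 0.0722).

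In order of mean level, the 4 groups were all separate from their neighbours for *TGFB2* and *SMAD3* (CFPAC-1 negative, CFPAC-1 positive, SW1990 negative, SW1990 positive, from high to low) and for *TGFBR1* and *INHBA* (SW1990 negative, SW1990 positive, CFPAC-1 positive, CFPAC-1 negative). The share of all genes with 4 separate groups was not computed, so these orders are a description. Positive and negative samples alone did not overlap for 43.3% of all genes in SW1990 and 48.5% in CFPAC-1. For *SMAD2* and *SMAD7* the 2 CFPAC-1 groups overlapped at the top, and for *SMAD2* the SW1990 groups overlapped as well. For *TGFB1* and *TGFBR2* the upper 3 groups formed a chain of overlapping neighbours, with SW1990 positive cells alone below it. For *TGFB3*, the negative SW1990 and positive CFPAC-1 cells overlapped above the other two groups, which also overlapped. For *TGFBR3*, CFPAC-1 positive cells stood alone at the bottom and the negative groups overlapped at the top. The highest group mean exceeded the lowest by 23.6 times for *TGFB2*, 14.6 for *INHBA*, 9.51 for *SMAD7*, 5.49 for *TGFBR1* and 5.05 for *SMAD3*, and by 1.52 to 2.89 times for the other 5.

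The rest of the pathway was examined through 6 lists of 67 further genes, of which 63 were tested. In SW1990, 29 of these fell and 5 rose, with a median log2 fold change of -0.48 (all genes, -0.04). In CFPAC-1, 17 fell and 10 rose, with a median of -0.24 (all genes, 0.05). Over all genes 16.9% fell and 11.3% rose in SW1990, and 14.2% fell and 22.3% rose in CFPAC-1, so that the share of these lists that rose lay below the general one in both lines. These all-gene shares are also the background for the counts of each list below. Of 9 other ligands of the family (6 tested), 1 rose and 1 fell in SW1990, and 1 rose and none fell in CFPAC-1. *INHBB*, which encodes the activin βB chain, rose in both lines, from 8.23 ± 2.31 to 16.3 ± 2.10 RPKM in SW1990 (log2 fold change 1.01, adjusted p = 0.00462) and from 6.61 ± 0.407 to 26.9 ± 7.35 in CFPAC-1 (1.97, adjusted p = 8.4e-05), where ± is the SD of 3 samples here and below. *GDF11*, a related growth factor, fell in SW1990 (-0.60, adjusted p = 0.00623). Thus in SW1990 the activin chains *INHBA* and *INHBB* moved in opposite directions, and in CFPAC-1 both rose.

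Of 10 genes of ligand latency and activation, 6 fell and 1 rose in SW1990, and 5 fell and 1 rose in CFPAC-1. *ITGB6*, whose integrin αvβ6 releases TGF-β from its latent complex on epithelial cells, rose in SW1990 from 0.842 ± 0.318 to 11.5 ± 1.29 RPKM (3.68, adjusted p = 6.79e-07) and fell in CFPAC-1 from 30.1 ± 6.56 to 17.9 ± 3.19 (-0.73, adjusted p = 0.0359). The latter did not pass without CFPAC-1 negative replicate 2 or 3 or positive replicate 1 or 3 (adjusted p of 0.0847 to 0.124), nor with a pseudocount of 0.01 or no trend (0.0506 and 0.0514). *ITGB8*, of the activating integrin αvβ8, fell in SW1990 from 8.86 ± 1.59 to 2.41 ± 0.524 RPKM (-1.84, adjusted p = 5.7e-06). It also fell in CFPAC-1, from 29.7 ± 2.43 to 19.8 ± 2.03 RPKM (-0.58, adjusted p = 0.0155). The call in CFPAC-1 was lost without CFPAC-1 negative replicate 3 or positive replicate 2 (0.0537 to 0.0632). *LTBP4*, a latent TGF-β binding protein, had a log2 fold change of -0.81 in SW1990 (adjusted p = 0.0416), which left-out samples ended in 7 of 12 fits, namely SW1990 negative or positive replicate 1 or 3 and any CFPAC-1 negative replicate (up to 0.156). It was also lost with no filter, no trend, SW1990 fitted alone and the replicate block (0.0536, 0.0582, 0.053 and 0.0636). *THBS1*, an extracellular activator of latent ligand, rose in CFPAC-1 from 24.3 ± 5.84 to 100.2 ± 33.6 RPKM (2.01, adjusted p = 0.000405), and measured 96.9 ± 22.9 against 89.4 ± 31.3 in SW1990 (adjusted p = 0.765). *FURIN*, the protease that cleaves the TGF-β precursor, fell in CFPAC-1 (-0.70, adjusted p = 0.00444), a call lost with CFPAC-1 fitted alone (0.0505).

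Of 6 other receptors, 3 fell and 1 rose in SW1990, and 2 fell and 1 rose in CFPAC-1. *BAMBI*, a pseudoreceptor without kinase activity, fell in SW1990 from 11.2 ± 0.986 to 2.01 ± 0.425 RPKM (-2.44, adjusted p = 1.25e-06) and measured 48.0 ± 2.43 against 66.7 ± 15.3 in CFPAC-1 (0.45, adjusted p = 0.0691), where it passed without SW1990 positive replicate 2 or CFPAC-1 positive replicate 3 (0.0486 and 0.00644), and with a pseudocount of 1, voom or the replicate block (0.0472, 0.0169 and 0.0428). *ENG*, the co-receptor endoglin, fell in SW1990 from 15.7 ± 1.33 to 7.59 ± 1.11 RPKM (-1.05, adjusted p = 0.00118). Both moved alongside the endothelial and fibroblast markers given above, and the part of those was not tested. *ACVR1B*, a type I activin receptor, rose in CFPAC-1 from 7.38 ± 0.111 to 12.5 ± 1.21 RPKM (0.75, adjusted p = 0.000323), as *TGFBR1* did. The type II activin receptors *ACVR2B* and *ACVR2A* fell in CFPAC-1 (-0.72 and -0.46, adjusted p = 0.0226 and 0.0411). The call on *ACVR2B* was lost without CFPAC-1 negative replicate 1 or 3 or positive replicate 1 (0.0605 to 0.0761), and that on *ACVR2A* without any 1 of the 6 CFPAC-1 samples, SW1990 negative replicate 1 or SW1990 positive replicate 3 (0.0518 to 0.107), with a pseudocount of 1 or no filter (0.0595 and 0.0567) and with the replicate block (0.0949). In SW1990 *ACVR2A* fell as well (-0.52, adjusted p = 0.0295), a call kept in 15 of 22 alternatives, and *ACVR2B* did not pass (-0.50, adjusted p = 0.11).

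Of 5 other SMADs, 3 fell in SW1990 and none passed in CFPAC-1. *SMAD4*, the partner shared by all receptor-activated SMADs (chr18:48554898-48611415, plus strand), had 0 reads in all 6 CFPAC-1 samples and 786 to 1228 reads in the SW1990 samples. It measured 5.86, 6.01 and 6.44 RPKM in negative and 5.22, 5.28 and 5.20 in positive SW1990 cells (-0.22, adjusted p = 0.378). With a floor of 3 reads a library, *SMAD4* was at least 364-fold higher in SW1990 than in CFPAC-1 in negative cells and at least 239-fold higher in positive cells. *SMAD6*, the inhibitor related to *SMAD7*, fell in SW1990 from 20.2 ± 1.32 to 5.31 ± 0.306 RPKM (-1.91, adjusted p = 1.4e-05) and measured 28.1, 30.1 and 29.8 in negative and 21.8, 22.6 and 41.0 in positive CFPAC-1 cells (-0.11, adjusted p = 0.695). Without CFPAC-1 positive replicate 3, which stood apart from its fellows, the latter was -0.40 and passed (0.00396). Among the SMADs of bone morphogenetic protein signalling, *SMAD9* fell in SW1990 from 1.86 ± 0.304 to 0.385 ± 0.123 RPKM (-2.04, adjusted p = 0.00026), *SMAD1* fell by 0.48 (adjusted p = 0.0196, lost without SW1990 negative replicate 2 or positive replicate 1 or 3, at 0.0535 to 0.078, and with centring, at 0.0505), and *SMAD5* was at -0.22 on the log2 scale (adjusted p = 0.355). In CFPAC-1 the changes of *SMAD9*, *SMAD1* and *SMAD5* were -0.52, -0.29 and -0.02 (adjusted p = 0.194, 0.115 and 0.954), and that of *SMAD1* passed without CFPAC-1 positive replicate 3 (0.0352) and with quantile normalization (0.0483). *SMAD9* had at most 7 reads a sample in CFPAC-1.

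Of 15 regulators of receptors and SMADs, 4 fell and 2 rose in SW1990, and 1 fell and 4 rose in CFPAC-1. The shares of all genes were 16.9% and 11.3% in SW1990, and 14.2% and 22.3% in CFPAC-1, in the same order. *FST*, the secreted follistatin that binds activin, rose in SW1990 from 4.17 ± 0.932 to 22.8 ± 1.94 RPKM (2.44, adjusted p = 0.000228) and in CFPAC-1 from 0.152 ± 0.144 to 1.94 ± 0.639 (3.10, adjusted p = 8.41e-05). In CFPAC-1 negative cells it had 3 to 13 reads a sample. Its log2 fold change in CFPAC-1 ran from 1.33 to 3.89 over the 22 alternatives and passed in each. *SKIL*, a nuclear repressor of SMAD complexes that TGF-β induces, fell in both lines, from 25.2 ± 2.23 to 8.60 ± 0.647 RPKM in SW1990 (-1.54, adjusted p = 2.49e-06) and from 23.8 ± 2.09 to 15.4 ± 2.27 in CFPAC-1 (-0.63, adjusted p = 0.00209). *FSTL3*, another activin-binding protein, fell in SW1990 (-0.82, adjusted p = 0.000526). *FKBP1A*, which holds the type I receptor inactive, rose in CFPAC-1 from 131 ± 4.63 to 178 ± 14.2 RPKM (0.44, adjusted p = 0.0029) and fell in SW1990 (-0.50, adjusted p = 0.00132). *SMURF1*, a ubiquitin ligase that works with *SMAD7*, rose in SW1990 (0.33, adjusted p = 0.018), a call lost without SW1990 negative replicate 2 or 3 or positive replicate 1 (0.0611 to 0.0688).

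Of 22 target genes (21 tested), 12 fell and none rose in SW1990, and 9 fell and 3 rose in CFPAC-1. The median log2 fold change of the list was -0.86 in SW1990 and -0.39 in CFPAC-1. *ZEB1*, a transcription factor of the epithelial to mesenchymal transition, fell in SW1990 from 32.0 ± 0.0686 to 2.63 ± 0.307 RPKM (-3.56, adjusted p = 1.48e-08) and in CFPAC-1 from 6.79 ± 0.851 to 2.51 ± 0.0433 (-1.39, adjusted p = 1.91e-05). *TGFB2*, *ZEB1* and *FN1*, which is also on this list, are among the genes the study itself singled out in these samples. Neither they nor the counts and medians that include them are independent evidence of a direction. *ID3*, a helix-loop-helix inhibitor that bone morphogenetic proteins also induce, fell in SW1990 from 64.2 ± 20.5 to 5.13 ± 1.73 RPKM (-3.63, adjusted p = 1.18e-05) and rose from a low level in CFPAC-1, 0.297 ± 0.161 to 1.03 ± 0.160 (1.59, adjusted p = 0.00471). That rise did not pass with a pseudocount of 1 (0.65, adjusted p = 0.0558) or with voom (1.88, adjusted p = 0.0874). *SNAI1*, another transcription factor of that transition, had a log2 fold change of 0.82 in CFPAC-1 (adjusted p = 0.0377), lost without CFPAC-1 negative replicate 1 or 3 or positive replicate 1 or 2 (0.0882 to 0.143) and with centring, quantile normalization, no filter or CFPAC-1 fitted alone (0.0529 to 0.0786), and fell in SW1990 (-1.81, adjusted p = 0.000415). *TAGLN*, the smooth muscle protein transgelin, fell in CFPAC-1 from 7.73 ± 1.88 to 2.87 ± 0.770 RPKM (-1.40, adjusted p = 0.0162), a call lost without CFPAC-1 negative replicate 1 or positive replicate 2 (0.0518 and 0.0616). In SW1990 it measured 30.9 ± 9.29 against 15.5 ± 9.01 RPKM (-1.12, adjusted p = 0.0522), which passed in 6 of 22 alternatives. The difference between the lines was 0.28 (adjusted p = 0.754).

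**Figure D4:**
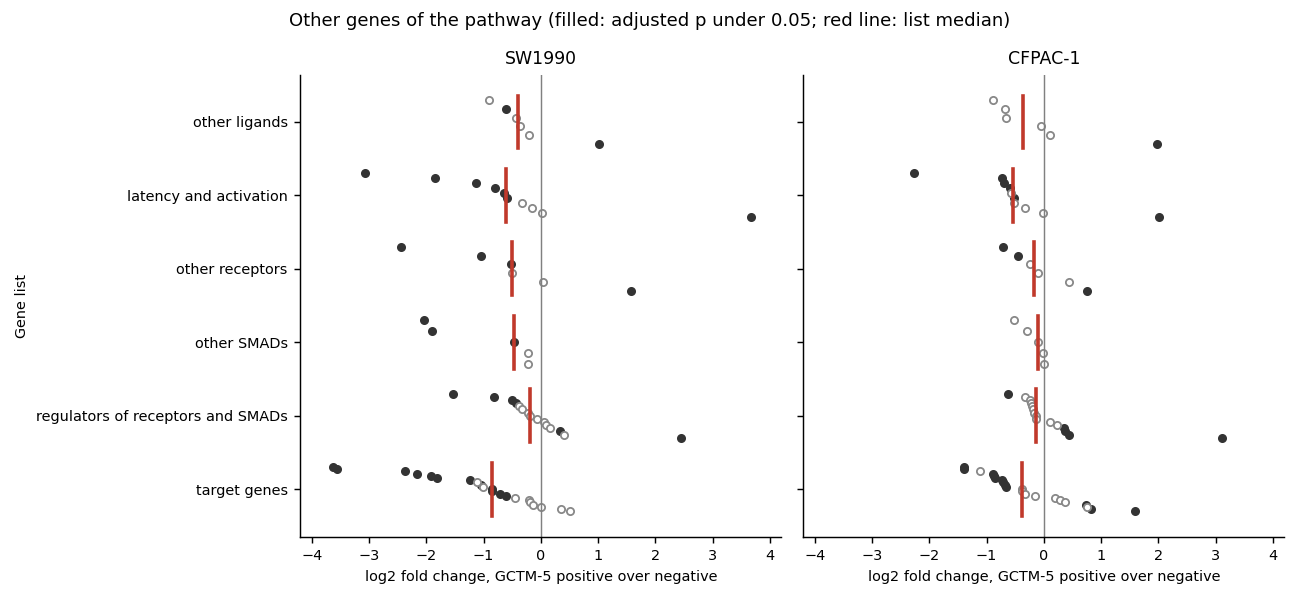
log2 fold change of positive over negative cells (x axis) for each tested gene of the 6 lists (y axis) in SW1990 (left) and CFPAC-1 (right). Filled points passed at an adjusted p under 0.05 (limma), open points did not, and the red line is the list's median. Target genes have the lowest median in SW1990, and FST is the rightmost point among regulators in both lines.

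The genes whose pattern over the 12 samples was most like that of the 3 most variable members were sought by the root mean square (RMS) difference of log2 values centred on each gene's mean, among 13267 genes. The measure is a description. For *TGFB2* they were *ITGA1*, an integrin chain that binds collagen (RMS difference 0.19), *LIFR*, the receptor of leukemia inhibitory factor (0.23), and the antisense *LOC728463* (0.32). For *INHBA* they were *ANKRD33B* (0.22), *ZNF488* (0.31) and *GFOD1* (0.40). For *SMAD7* they were *CDH2*, which encodes N-cadherin (0.29), *TBC1D9* (0.35) and *BMP2*, a bone morphogenetic protein (0.37), whose mean RPKM was 4.35 in SW1990 negative and 0.414 in SW1990 positive cells and 6.31 and 5.18 in CFPAC-1. *CDH2* also stands in the list of target genes above.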

How the data were processed

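The data are RNA-seq of 12 samples of sorted cells, in 4 groups of 3 that the study calls triplicate sorts. Reads had been aligned to hg19/GRCh37 by the authors and quantified with QuasR, and the deposited values are RPKM, read counts scaled by gene length and library size. The submitters' processing notes also name bcl2fastq. The annotation, use of strand, treatment of multi-mapping reads and QuasR version are not given in the sources used here. The study names a TruSeq kit and the labels a SureSelect strand-specific kit.

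Whole reads were recovered from the RPKM values: all 19654 genes above 0 gave whole reads (tolerance 0.01) at the library totals found from single-exon genes. Tested on simulated data, 12 of 12 totals and 99.95% of 16791 genes were recovered. Totals were 9969697 to 26159330 reads, and floors cover counting error only.

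Kept for testing were 16236 of 23346 genes, those whose mean RPKM reached 0.1. log2(RPKM + 0.1) was fitted with 4 group means in R 4.3.3 and limma 3.58.1 (lmFit, contrasts.fit, eBayes with trend), so that fold changes of low genes are understated. A gene passed at a 2-sided Benjamini-Hochberg adjusted p under 0.05 over all genes. TCC, which the study used, works on counts and was not used here. On data simulated for SW1990 (16146 genes), 95% of 100 genes changed 2-fold and 100% of 100 changed 4-fold passed, as did 11 unchanged genes. The simulation gave every gene the same fixed dispersion and changed only genes with a mean of at least 1 RPKM. Its shares therefore need not hold at the spread of the real samples or for lower genes.

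The 10 members and the lists were chosen with earlier results of these data known. Named from each list were up to 2 of the largest rises and falls a line that passed with a mean RPKM of at least 1, and every other SMAD. The alternatives tried were a pseudocount of 0.01 or 1, all genes above 0, a filter at a mean of 1 RPKM, centring of samples, a replicate block, quantile normalization, separate fits of the lines, no trend, voom on the recovered reads, and each of the 12 samples left out. Python 3.11.15 with pandas 2.3.3, numpy 2.4.6, scipy 1.17.1, numba 0.67.0 and matplotlib 3.10.9 was used. Gene coordinates are those of GENCODE release 44 on GRCh37, and promoter sequences are from RefSeq (GRCh38.p14), matched for 10 of 10 members.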

Additional observations from a re-analysis of the deposited data

Results flagged for a closer look

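The change from negative to positive cells differed between SW1990 and CFPAC-1 for 6 members and for 18 further genes named from the lists, each by the limma test of the difference itself (adjusted p under 0.05). Over all genes 26.9% passed this test, and of the 63 tested genes of the lists 6 passed as higher and 22 as lower. Apart from *SMAD9*, the 18 had been named for large changes within a line, so their number does not describe the lists. Values below are the log2 fold change in SW1990 minus that in CFPAC-1. Among the members they were -0.91 for *TGFB1*, -0.93 for *TGFB3*, -1.78 for *TGFBR1*, -0.52 for *TGFBR2*, -2.31 for *SMAD7* and -3.40 for *INHBA*. Of these, *TGFBR1* and *INHBA* passed in opposite directions in the lines.

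Among ligands and genes of latency, the difference was -0.96 for *INHBB*, which rose in both lines and more in CFPAC-1, -0.71 for *GDF11*, 4.41 for *ITGB6*, -1.26 for *ITGB8*, which fell in both lines, -2.16 for *THBS1* and 0.73 for *FURIN*. *ITGB6* differed in the opposite direction to the 6 members. Among receptors it was -2.89 for *BAMBI*, -0.80 for *ENG* and -0.71 for *ACVR1B*, and among SMADs -1.80 for *SMAD6* and -1.52 for *SMAD9*. Among regulators it was 0.51 for *SMURF1*, -0.90 for *SKIL*, which fell in both lines, -1.04 for *FSTL3* and -0.94 for *FKBP1A*. Among target genes it was -5.22 for *ID3*, -2.17 for *ZEB1*, which fell in both lines, and -2.62 for *SNAI1*.

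The differences of *INHBB*, *FURIN* and *ENG* were lost in 9, 9 and 10 of the 12 fits that left out 1 sample (adjusted p of 0.0602 to 0.0927, 0.0501 to 0.0621 and 0.0543 to 0.095). Other settings ended that of *INHBB* (centring, quantile normalization and no trend, 0.058 to 0.0773), *GDF11* (centring and quantile normalization, 0.0612 and 0.0536), *SMAD9* (a pseudocount of 0.01 and voom, 0.608 and 0.227, with a difference of -0.80 and -1.23) and *ENG* (centring, quantile normalization, no trend, no filter, a pseudocount of 0.01 and the replicate block, 0.0503 to 0.0672). The difference of *ENG* thus passed in 5 of 21 alternatives. Those of *TGFB3* and *TGFBR2* were lost with quantile normalization (0.0653) and with centring (0.0988), respectively, and that of *TGFB3* also without SW1990 positive replicate 3 or CFPAC-1 negative replicate 2.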

How the results depend on the processing

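Of 1070 values of a member's change under an alternative, 987 kept direction and side of the threshold, 57 no longer passed, 14 came to pass and 12 changed sign. The number of members that passed in SW1990 was 8, and 5 to 8 when 1 sample was left out. It was 7 with a replicate block and 6 with centring or quantile normalization. In CFPAC-1 it was 6, and 5 to 7 with 1 sample left out. Signs changed, always without passing, for *SMAD7* in CFPAC-1 (-0.039 to 0.026 with 1 sample left out), *TGFB2* in the difference between lines (-0.12 to 0.095 likewise), *SMAD2* in that difference (0.060 with centring, 0.15 with quantile normalization), and, between lines in negative cells, *TGFBR2* (-0.14 to 0.0002) and *TGFBR3* (-0.16 to 0.10). The cause was not tested. Correlations of same-numbered replicates, taken on deviations from group means, were 0.185, 0.016 and 0.116 in SW1990. Those of differently numbered pairs there ran from -0.254 to 0.162. In CFPAC-1 they were -0.020, 0.001 and -0.059 for the same number and -0.033 to 0.042 otherwise. These values do not settle whether the SW1990 samples were paired, and the main fit used no pairing. With the replicate block, members that passed numbered 7 in SW1990, 6 in CFPAC-1, 7 for the difference, 6 between lines in negative and 9 in positive cells, and *TGFB3* in SW1990 (adjusted p = 0.0629), in negative (0.0653) and in positive cells (0.0562) no longer passed, while *TGFBR3* came to pass in the difference (0.0496) and *INHBA* in positive cells (0.0168). Of 642 counts for a list, 605 stayed within 1.5 times the reported count. With 3 samples a group and *TGFB3* at 65 to 133 reads, small changes of low genes are the least certain.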

Other observations

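The absence of *SMAD4* reads in CFPAC-1 extended to a neighbour, chosen for mention after its values were seen. Of the genes within 1 Mb of *SMAD4* on chromosome 18 (GRCh37), *ELAC1* (chr18:48494361-48514491), which encodes a tRNA-processing enzyme, also had 0 reads in all 6 CFPAC-1 samples, against 58 to 97 reads in the SW1990 samples, or at least 26.3-fold (negative) and 27.2-fold (positive) higher in SW1990 at a floor of 3 reads a library. The genes on either side were read in both lines: *ME2* (chr18:48405450-48480627), a mitochondrial malic enzyme, had 164 to 417 reads in CFPAC-1 and 301 to 485 in SW1990, and *MEX3C* (chr18:48700920-48744703) had 823 to 2009 and 1176 to 1999.

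*CDKN2B*, a cell cycle inhibitor induced by TGF-β and on the list of target genes, showed the reverse, with 0 reads in all 6 SW1990 samples and 10.1 to 16.8 RPKM in CFPAC-1. It was at least 411-fold higher in CFPAC-1 in negative and at least 279-fold higher in positive cells at the same floor. It too was chosen for mention after its values were seen.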
